A study of Mus musculus with 2 samples.

Results

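Immediate early genes were followed in nuclei and in free RNA of the mouse salivary gland. The 9 genes Fos, Fosb, Jun, Junb, Atf3, Egr1, Ier2, Dusp1 and Zfp36 were taken by symbol from the 26033 genes of the deposited count matrices, each symbol matched 1 gene identifier, and all 9 had UMIs (unique molecular identifiers, 1 per captured RNA molecule) in both libraries. There were 2 single-nucleus libraries of unselected salivary gland nuclei from mice aged 20 days, 1 from Csf2+/- mice (called the control library) and 1 from Csf2-/- mice (the null library), both on the strain given as C56BL/6. Csf2 encodes the cytokine GM-CSF. Both groups thus carry at least 1 null Csf2 allele, the labels do not say how many animals gave each library, and cells were released by digestion before their nuclei were isolated. With 1 library per genotype there was no replicate check. Every ratio below therefore compares these 2 libraries, no p-value is given, and each 95% interval covers counting error only.

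Immediate early genes are transcribed within minutes of a stimulus, without the need for newly made protein, when growth factor, calcium, cyclic AMP or stress signals reach transcription factors that are already present, such as CREB and SRF. Their messages are short-lived, so their level follows recent signalling. They are also known to be switched on by tissue digestion and cell handling. The proteins of Fos, Fosb, Jun, Junb and Atf3 pair into AP-1 and related transcription factors, Egr1 encodes a zinc finger transcription factor, and Ier2 encodes a nuclear regulator. Dusp1 and Zfp36 act as brakes: DUSP1 removes phosphate from MAP kinases, and ZFP36 (tristetraprolin) binds AU-rich messages and speeds their decay.

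Promoter sequences from RefSeq (build GRCm38.p6) could be matched to 7 of the 9 genes, all but Egr1 and Ier2, which were not searched. Since the counts were made on GRCm39, these sequences describe the genes and were not joined to any coordinate of the count files. The 250 bases before the start were searched on both strands for the cyclic AMP response element (CRE) TGACGTCA, its core TGACG, the AP-1 site TGANTCA, the TATA box TATAAA, the EGR site GCGGGGGCG and the CArG box that SRF binds. A full CRE contains the core on both strands. Dusp1, Fos and Junb are shown because all 3 hold the core while, as given below, Dusp1 and Fos were lower and Junb higher in the null library. Capitals mark CRE cores, the full CRE and TATA boxes. The Dusp1 stretch (chr17:26508520-26508722, minus strand) stops before the first annotated exon base, 48 bases before the RefSeq start. The Fos stretch is chr12:85473640-85473889 (plus strand) and the Junb stretch is chr8:84978749-84978998 (minus strand).
Dusp1: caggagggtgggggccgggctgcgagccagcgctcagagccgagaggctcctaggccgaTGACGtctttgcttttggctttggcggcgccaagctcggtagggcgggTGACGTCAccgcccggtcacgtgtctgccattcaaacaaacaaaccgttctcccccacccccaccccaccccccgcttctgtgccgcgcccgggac
Fos: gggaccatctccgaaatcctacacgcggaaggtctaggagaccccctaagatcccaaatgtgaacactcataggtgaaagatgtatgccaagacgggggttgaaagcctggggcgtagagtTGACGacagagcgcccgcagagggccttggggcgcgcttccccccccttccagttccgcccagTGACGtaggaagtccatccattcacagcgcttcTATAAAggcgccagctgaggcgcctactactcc
Junb: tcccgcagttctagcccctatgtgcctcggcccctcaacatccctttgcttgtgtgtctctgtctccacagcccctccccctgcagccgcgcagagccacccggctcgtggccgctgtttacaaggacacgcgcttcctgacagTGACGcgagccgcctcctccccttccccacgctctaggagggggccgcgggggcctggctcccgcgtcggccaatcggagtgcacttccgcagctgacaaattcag

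The CRE core was present in 5 of the 7 windows (Fos, Fosb, Junb, Atf3 and Dusp1), against 17.9% of the 27025 promoters of the table. The full CRE was present in Dusp1 alone among the 7, at 143 to 136 bases before the start, and in 1.62% of all promoters. A CArG box was found in Zfp36 (1.40% of all promoters), the EGR site in Fosb and Zfp36 (2.56%), a TATA box in Fos (12.97%) and an AP-1 site in none of the 7 (6.87%). The 7 windows held 58.4% to 68.8% G and C against a median of 52% over all promoters. A match describes these letters and does not show that a factor binds there.

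The control library held 68460 barcodes with 76002888 UMIs and the null library 74339 barcodes with 75630815 UMIs, and 1367 barcodes occurred in both. Csf2 itself gave 5 control and 0 null UMIs (95% Poisson interval for the null library 0 to 3.69). The labels do not give the position of the deletion, so it is not known whether a 3' tag could still be read from the deleted allele. Joint clustering gave 13 clusters of nuclei (8641 control and 14229 null nuclei, median 2806 and 1951 UMIs) and 4 clusters with the profile of free RNA, which is captured in droplets without a nucleus. Free RNA is measured here in barcodes under 1000 UMIs of those 4 clusters, 48387 control and 37443 null barcodes. Of the 13 clusters, 11 could be named from marker genes. The seromucous acinar-like cluster rests on 3 of 13 markers (Bhlha15, Lpo and Ano1) and the mucous acinar-like cluster on 3 of 7 (Muc19, Spdef and Galnt12), and the macrophage-like cluster also held T cell markers. The other 2 are called the Unc5c and Knl1 clusters after a leading gene. Going by the secretory transcripts they contain, 28.5% to 47.0% of the UMIs of a class could be free RNA. This is an upper figure for the acinar and intercalated duct classes, which make such transcripts themselves.

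Summed over the 9 genes, all nuclei had 260 control and 183 null CPM (UMIs scaled to a common total, as counts-per-million values are), a log2 ratio of -0.51 (-0.56 to -0.46). The median of all genes was -0.09. Free RNA had 336 and 216 CPM (-0.64, -0.68 to -0.59), where the median of all genes was -0.30. Dusp1 had the largest share of the sum in both libraries and gave 60.3% of these UMIs in control and 43.6% in null nuclei. The sum therefore does not stand for the group, and the genes did not move together. In all nuclei 7 of the 9 had a ratio below 0 and 2, Junb and Ier2, above 0, with the counting interval below 0 for 6 and above 0 for 2. For Fos, 1 of the 6, the interval included 0 under 4 of 10 alternatives. How many of all genes had a ratio or an interval below or above 0 was not counted, and their median was itself below 0 (-0.09). A single gene, Fosb, was at least 2-fold lower and 0 were at least 2-fold higher, beside 2.06% and 1.68% of all 15967 genes with at least 20 UMIs. The Fosb call rests on 15 control and 8 null UMIs, 5 of the 15 in 1 nucleus, and its interval included 0.

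**Figure D1:**
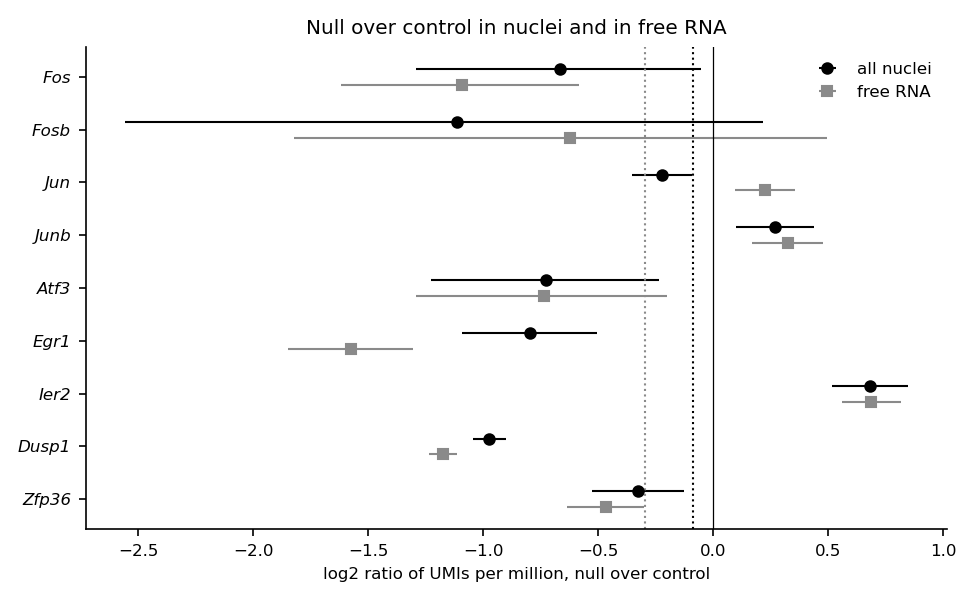
Log2 ratio of CPM, null over control library (x axis), of each of the 9 genes (y axis) in all nuclei (black circles) and free RNA (grey squares); bars are 95% counting intervals and dotted lines the median of all genes in nuclei (black) and free RNA (grey). Ier2 and Junb lie above 0 and Dusp1, Egr1, Atf3, Fos and Zfp36 below 0 in both, while Jun changes side.

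Fos, the partner of JUN proteins in AP-1, was scarce: 55 UMIs (2.07 CPM) in control and 40 (1.30 CPM) in null nuclei, a log2 ratio of -0.67 (-1.29 to -0.05). Free RNA held 119 and 45 Fos UMIs (3.25 and 1.52 CPM, -1.09, -1.62 to -0.59). Ionocyte-like nuclei had the highest Fos level of any class in the control, 11 UMIs (16.7 CPM), with 2 UMIs (4.21 CPM) in the null library. These counts were under the minimum of 20 UMIs over both libraries for a ratio. Fosb, a close relative, had 8 of its 15 control UMIs in fibroblast-like nuclei, against 2 of 8 in the null library. The 8 control UMIs came from 4 nuclei, with 5 in 1 of them. In 7 of the 13 classes Fosb had 0 UMIs in both libraries. With so few counts, no difference of Fos or Fosb between the libraries within a class was detectable at this depth.

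Jun, the main partner of FOS, had 958 UMIs (36.05 CPM) in control and 947 (30.9 CPM) in null nuclei, a log2 ratio of -0.22 (-0.35 to -0.09). In free RNA the ratio was on the other side of 0, with 26.9 and 31.5 CPM (0.23, 0.10 to 0.36). Over all barcodes the 2 libraries differed by 0.05 (-0.04 to 0.13). In 4 classes Jun stood out in both libraries. It was higher than in the other nuclei, and than in free RNA, in luminal duct-like (51.4 control and 51.8 null CPM), Slc9a3-cluster intercalated duct-like (53.8 and 57.1), ionocyte-like (54.7 and 65.2) and endothelial-like nuclei (60.2 and 55.1). The intervals of these 4 classes overlapped each other, so they could not be ranked. Fibroblast-like nuclei (21.2 and 17.7 CPM) and myoepithelial and basal-like nuclei (17.6 and 11.1 CPM) were low in both.

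In the 2 acinar classes the ratio of Jun lay on opposite sides of 0, a difference between classes that was not tested. Seromucous acinar-like nuclei had 437 control UMIs (39.1 CPM) and 345 null UMIs (25.3 CPM), a log2 ratio of -0.63 (-0.84 to -0.42). Mucous acinar-like nuclei had 35 control UMIs (26.5 CPM) in 30 nuclei and 138 null UMIs (57.0 CPM) in 111 nuclei, a log2 ratio of 1.10 (0.56 to 1.68). Against the other nuclei, the seromucous class had a control log2 ratio of 0.21 (0.02 to 0.40) and a null one of -0.49 (-0.68 to -0.29). In the control the counting intervals of the 2 classes overlapped, and in the null library mucous acinar-like nuclei were the higher without overlap. The small Knl1 cluster, led by cell division genes, had the highest control Jun estimate of the 13 classes, 62.8 CPM (35.9 to 102). This interval overlapped those of the classes where Jun stood out in both libraries. Against the other nuclei its control log2 ratio was 0.81 (-0.002 to 1.52). The null level was 20.7 CPM. The counts were 16 control and 7 null Jun UMIs in 65 and 126 nuclei, a log2 ratio of -1.60 (-3.13 to -0.24). Both genes measured in that cluster, Jun and Dusp1, were at least 2-fold lower, beside 3.97% of all genes (4.52% higher).

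Junb, another AP-1 subunit, was higher in the null library, with 493 control UMIs (18.6 CPM) and 686 null UMIs (22.4 CPM), a log2 ratio of 0.27 (0.10 to 0.44). Free RNA gave nearly the same ratio (0.32, 0.17 to 0.48). By class the interval lay above 0 in 4 epithelial or unnamed clusters with at least 20 UMIs. It was 1.42 (0.53 to 2.40) in Slc9a3-cluster intercalated duct-like nuclei (14 and 45 UMIs), 1.01 (0.10 to 2.02) in mucous acinar-like nuclei (13 and 48 UMIs), 0.83 (0.27 to 1.40) in luminal duct-like nuclei (45 and 72 UMIs) and 0.80 (0.03 to 1.60) in the Unc5c cluster (23 and 41 UMIs). In the Slc9a3 cluster Junb was the 1 gene of 5 measured past 2-fold, beside 2.33% of all genes higher and 2.39% lower in that cluster. In fibroblast-like (-0.33) and macrophage-like nuclei (-0.41) the values lay below 0 with intervals that included 0. The gene model of Junb overlaps Prdx2 on the opposite strand, which had a log2 ratio of 0.39 (0.25 to 0.52) in all nuclei. Whether the counting used strand was not given in the sources used here, so the part of Prdx2 in the Junb values was not tested.

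Atf3, a stress-induced relative of the CREB family, had 86 control UMIs (3.24 CPM) and 60 null UMIs (1.96 CPM) in nuclei, a log2 ratio of -0.73 (-1.23 to -0.23). The 1 class with enough counts was seromucous acinar-like, with 47 and 25 UMIs (4.21 and 1.83 CPM) and a log2 ratio of -1.20 (-1.96 to -0.47). Macrophage-like nuclei had 7 and 5 UMIs, and in both libraries this was above free RNA beyond counting error (7.63 against 2.48 CPM and 5.41 against 1.49 CPM). Against the other nuclei their intervals included 0 in both libraries. Ionocyte-like nuclei had a similar level from 5 and 4 UMIs (7.59 and 8.41 CPM), above free RNA beyond counting error in the null library only.

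Egr1 was above the other nuclei and above free RNA, beyond counting error in each library, in 2 classes: myoepithelial and basal-like nuclei (29.3 control and 49.3 null CPM) and fibroblast-like nuclei (23.2 and 9.41 CPM). Null endothelial-like nuclei had 9.72 CPM from 3 UMIs, too few to be told apart from the fibroblast-like level. In the control these 2 classes overlapped, and in the null library they did not. Seromucous acinar-like nuclei had 5.19 and 2.42 CPM, below free RNA (14.5 and 4.87 CPM) in both libraries. The free-RNA level of Egr1 could account for all of the acinar level in the control (6.38 CPM) and nearly all in the null library (2.24 CPM).

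Between the libraries, Egr1 in all nuclei stood at 244 control UMIs (9.18 CPM) and 162 null UMIs (5.28 CPM), a log2 ratio of -0.80 (-1.09 to -0.51). Fibroblast-like nuclei had 95 UMIs in 63 nuclei (at most 9 in 1 nucleus) and 44 UMIs in 38 nuclei (-1.30, -1.85 to -0.77). Luminal duct-like nuclei had 20 and 7 UMIs (-1.36, -2.85 to -0.06). Myoepithelial and basal-like nuclei went the other way, with 30 UMIs in 23 nuclei and 49 UMIs in 36 nuclei (0.75, 0.07 to 1.46). In that class the myoepithelial markers summed to 0.35% (control) and 0.33% (null) of UMIs, and 8 of 9 markers had UMIs in each. The fibroblast markers took 0.36% and 0.27% of the UMIs of fibroblast-like nuclei, with 10 of 10 markers present, and the part of that difference in the Egr1 value was not tested. Thinned to 500 UMIs per nucleus, Egr1 was seen in 2.33% (1.01 to 4.54) of control and 2.35% (1.18 to 4.17) of null myoepithelial and basal-like nuclei, from 8 and 11 nuclei, too few to compare. Unthinned, the shares were 6.71% and 7.69%, at median depths of 2737 and 2001 UMIs. Free-RNA barcodes thinned alike had 0.72% and 0.22%.

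**Figure D2:**
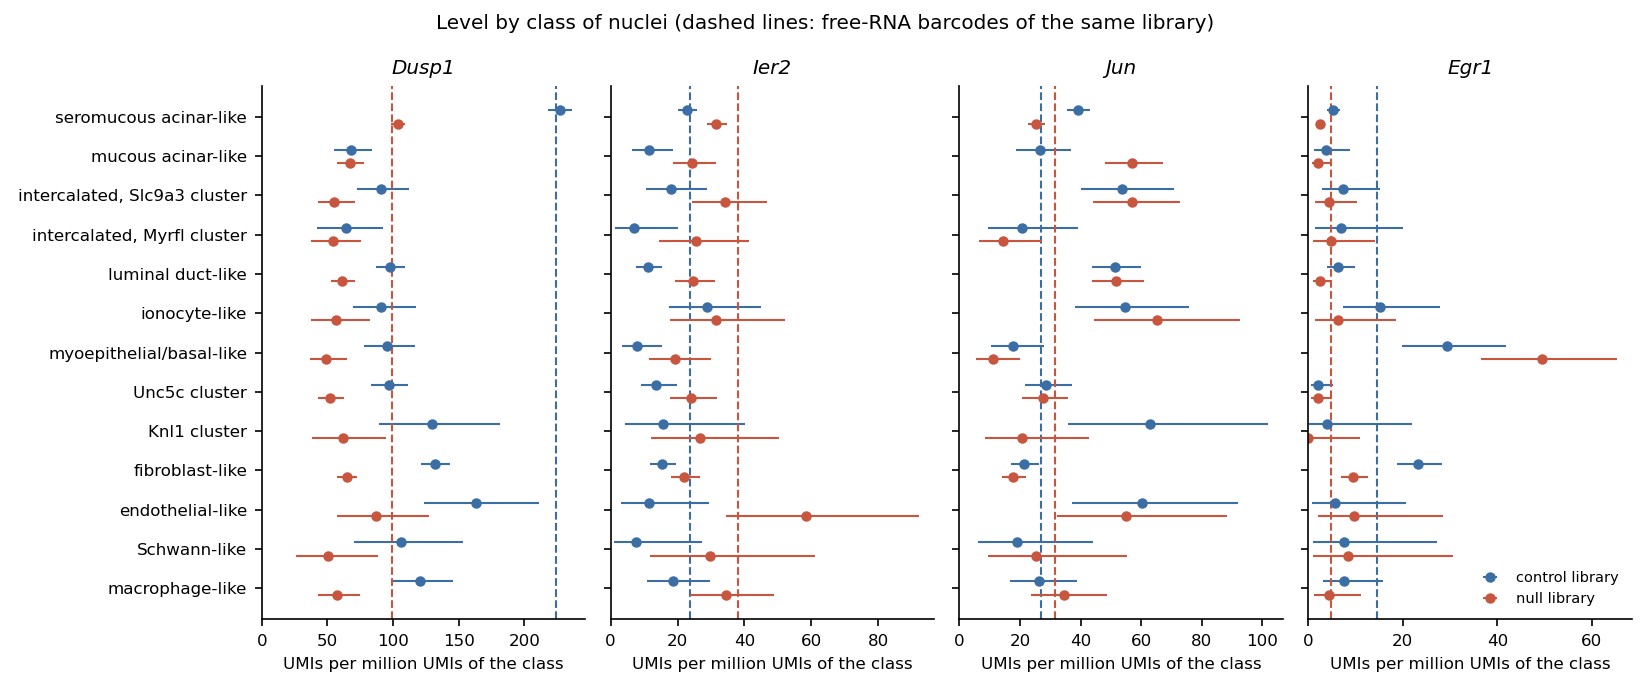
CPM of the class (x axes) of Dusp1, Ier2, Jun and Egr1 in 13 classes of nuclei (y axis), control (blue) and null (red) library; bars are 95% Poisson intervals and dashed lines the free-RNA level of each library. Dusp1 peaks in seromucous acinar-like nuclei, and Jun lies above the free-RNA lines in both libraries in luminal duct-like, Slc9a3-cluster intercalated duct-like, ionocyte-like and endothelial-like nuclei. Egr1 does so beyond its intervals in myoepithelial and basal-like and in fibroblast-like nuclei.

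Ier2 was higher in the null library nearly everywhere. All nuclei had 469 control UMIs (17.6 CPM) and 868 null UMIs (28.3 CPM), a log2 ratio of 0.68 (0.52 to 0.85), and free RNA had 23.7 and 38.2 CPM (0.69, 0.56 to 0.82). The ratio was above 0 in 10 of the 10 classes with at least 20 UMIs, with the interval above 0 in 9 and including 0 in ionocyte-like nuclei (0.13, -0.95 to 1.18). In ionocyte-like nuclei the ratio kept its sign under 10 of 11 alternatives, with a lowest value of -0.19. In 4 classes it was at least 2-fold. Endothelial-like nuclei had 4 control UMIs in 4 nuclei and 18 null UMIs in 16 nuclei (2.35, 0.74 to 4.37), the luminal duct-like class 35 and 70 UMIs (1.15, 0.55 to 1.78), mucous acinar-like nuclei 15 and 59 UMIs (1.10, 0.26 to 2.02) and myoepithelial and basal-like nuclei 8 and 19 UMIs (1.29, 0.03 to 2.69). At least 2-fold higher values were found for 3.22%, 2.08%, 2.62% and 2.28% of all genes in these classes, and lower ones for 3.96%, 1.60%, 1.77% and 2.40%. Seromucous acinar-like nuclei had 22.8 and 31.6 CPM (0.47, 0.24 to 0.70). No class was above free RNA beyond counting error in both libraries. Going by the secretory transcripts, free RNA could be 39.6% of control and 41.7% of null UMIs of all nuclei. The comparison of levels therefore does not say how much of the nuclear Ier2 is free RNA.

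Dusp1 had the most UMIs of the 9 and the largest difference in counts. All nuclei had 4166 control UMIs (157 CPM) and 2448 null UMIs (79.8 CPM), a log2 ratio of -0.97 (-1.05 to -0.90), just short of 2-fold. Free RNA had 224 and 99.3 CPM (-1.18, -1.24 to -1.12) and all barcodes 15173 and 6933 UMIs (-1.12, -1.16 to -1.08). Over all barcodes Dusp1 and Egr1 (-1.33) were the 2 genes at least 2-fold lower and 0 were higher, beside 2.74% and 1.95% of all genes. Thinned to 500 UMIs, 7.44% (6.90 to 8.01) of control and 3.97% (3.66 to 4.30) of null nuclei had a Dusp1 UMI, against 10.3% and 4.72% of free-RNA barcodes. In free RNA 3 of the 9 genes were at least 2-fold lower (Fos, Egr1 and Dusp1) and 0 higher, beside 5.28% and 1.48% of all genes. After centring on the median of all genes in free RNA, Egr1 stayed past 2-fold (-1.27), and Dusp1 (-0.88) and Fos (-0.79) did not.

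Seromucous acinar-like nuclei had the highest Dusp1 level of the 13 classes in both libraries (in the null library the interval overlapped that of endothelial-like nuclei), with 2535 control UMIs (227 CPM) and 1417 null UMIs (104 CPM), a log2 ratio of -1.13 (-1.22 to -1.04). Of the 8 genes measured in this class, 3 were at least 2-fold lower (Dusp1, Egr1 and Atf3) and 0 higher, beside 1.85% and 2.35% of all genes. The Dusp1 difference was present at each depth and mitochondrial share with enough nuclei. Acinar nuclei of 1000 to 2000 UMIs had 251 and 105 CPM, those of 2000 to 4000 had 223 and 104 CPM, and those under 0.5% mitochondrial UMIs had 226 and 109 CPM. The acinar level differed from that of free RNA in the same library (224 and 99.3 CPM) by less than counting error, with log2 ratios of 0.02 (-0.05 to 0.08) and 0.06 (-0.03 to 0.16). By the secretory transcripts, which acinar nuclei make themselves, free RNA could be up to 44.0% (control) and 46.0% (null) of their UMIs. An equal level thus does not mean that all acinar Dusp1 is free RNA.

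Across classes Dusp1 had a ratio below 0 in 13 of 13, with the interval below 0 in 11. It was -1.03 (-1.23 to -0.82) in fibroblast-like, -1.08 (-1.58 to -0.59) in macrophage-like, -0.90 (-1.62 to -0.22) in endothelial-like and -0.67 (-0.95 to -0.40) in luminal duct-like nuclei. The exceptions were mucous acinar-like nuclei (68.2 and 66.9 CPM, -0.03, -0.41 to 0.36) and the Myrfl cluster of intercalated duct-like nuclei (63.9 and 54.3 CPM, -0.23, -0.999 to 0.54). Much of the Dusp1 of other classes could be free RNA. In control luminal duct-like nuclei, free RNA could give 71.7 of the 97.7 CPM. With that part taken off and the rest rescaled, the null level was no longer the lower in 6 of the 13 classes. Luminal duct-like nuclei then had 38.2 control and 40.6 null CPM, and ionocyte-like nuclei 18.2 and 32.2 CPM. The Unc5c cluster had 0 and 10.8 CPM left. The mucous acinar-like class (5.89 and 51.2 CPM) and the Slc9a3 (6.12 and 23.2 CPM) and Myrfl (0 and 30.6 CPM) clusters of intercalated duct-like nuclei turned too, but in these the secretory transcripts may be their own and the part taken off too large. The null level was still the lower in the other 7, among them fibroblast-like (77.5 and 44.2 CPM), macrophage-like (47.7 and 25.6 CPM) and endothelial-like nuclei (109 and 79.1 CPM).

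**Figure D3:**
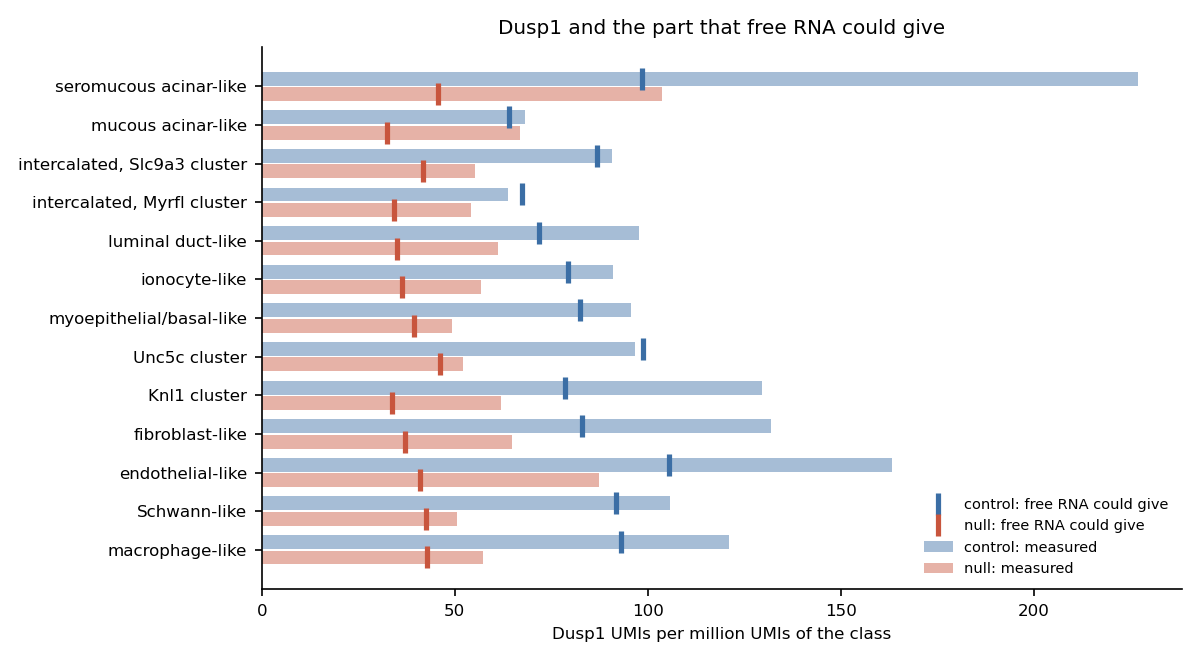
Dusp1 CPM of the class (x axis) in 13 classes of nuclei (y axis), control (blue bars) and null (red bars), with vertical ticks for the part that free RNA of the same library could give, from the secretory transcripts in the class. In duct-like, myoepithelial and Unc5c classes the control tick lies near the end of the bar, and in fibroblast-like, endothelial-like and seromucous acinar-like nuclei well inside it.

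The annotation bears on Dusp1. In GENCODE M21 (GRCm38), the Dusp1 gene model spans 56539 bases, although its messenger RNA has 4 exons and 1990 bases. The Dusp1 model overlaps AC122252.1 and AC122252.4 on the same strand and Gm8225 on the opposite strand. Their part in the Dusp1 counts was not tested. It also overlaps Ergic1 on the opposite strand, a gene of the secretory pathway that is also high in seromucous acinar-like nuclei. Ergic1 had 390 control and 400 null CPM there (0.04, -0.02 to 0.09) and a ratio of 0.10 (0.05 to 0.14) in all nuclei, so it did not share the lower null level of Dusp1. Neither the annotation used for the counts nor the counting of introns was given in the sources used here.

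Zfp36 had 425 control UMIs (16.0 CPM) and 391 null UMIs (12.7 CPM) in nuclei, a log2 ratio of -0.33 (-0.53 to -0.13). It was below 0 in 8 of the 8 classes with at least 20 UMIs, but the interval lay below 0 in only 2, seromucous acinar-like (-0.44, -0.73 to -0.15) and macrophage-like nuclei (22 and 10 UMIs, -1.15, -2.39 to -0.01). Not every alternative kept the sign. The highest Zfp36 ratio under an alternative was 0.36 in fibroblast-like and 0.12 in myoepithelial and basal-like nuclei. In macrophage-like nuclei 2 of the 5 genes measured were at least 2-fold lower (Dusp1 and Zfp36) and 0 higher, beside 2.49% and 2.47% of all genes.

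**Figure D4:**
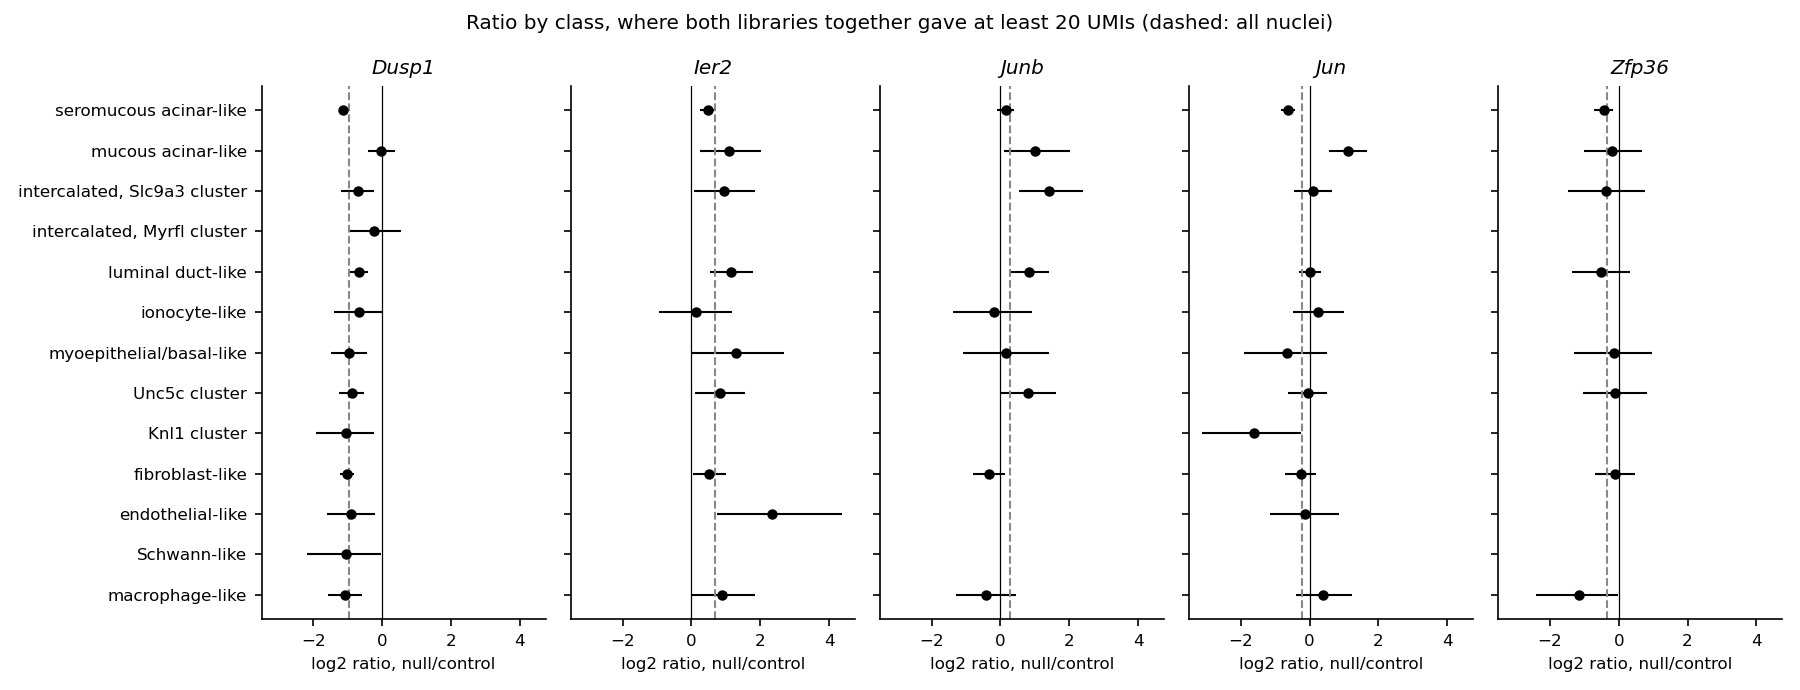
Log2 ratio null over control (x axes) of Dusp1, Ier2, Junb, Jun and Zfp36 by class of nuclei (y axis), for classes with at least 20 UMIs over both libraries; points are estimates, bars 95% counting intervals and the dashed line all nuclei. Dusp1 lies below 0 in 13 classes and Ier2 above 0 in 10, and Jun is above 0 in mucous and below 0 in seromucous acinar-like nuclei.

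In mucous acinar-like nuclei the summed level was higher in the null library. Of 5 genes measured there, 3 (Jun, Junb and Ier2) were at least 2-fold higher in the null library and 0 lower, beside 2.62% and 1.77% of all genes, and the summed level was 141 and 188 CPM (0.41, 0.16 to 0.67). This class held 352 control and 959 null nuclei, and seromucous acinar markers took 6.06% of its control and 8.11% of its null UMIs. The part of that difference in the result was not tested. In fibroblast-like nuclei 2 of 6 genes (Egr1 and Dusp1) were at least 2-fold lower and 0 higher, beside 2.66% and 2.28% of all genes. Of 6 genes measured in luminal duct-like nuclei, Egr1 was lower and Ier2 higher, beside 1.60% and 2.08%. In Schwann-like nuclei the 1 gene measured, Dusp1, was lower, beside 6.39% (3.58% higher). No gene was past 2-fold in ionocyte-like nuclei (4 measured, 3.57% of all genes lower and 2.60% higher), in the Unc5c cluster (5 measured, 2.39% and 1.92%) or in the Myrfl cluster of intercalated duct-like nuclei (1 measured, 2.57% and 3.45%).

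Few nuclei carried UMIs of more than 1 of the genes. Thinned to 1000 UMIs, 79.3% of 8475 control and 83.6% of 13818 null nuclei had none of the 9, 1.51% and 1.02% had 2, and 0.13% and 0.07% had at least 3. Control nuclei with a Junb UMI had a UMI of another of the 9 in 26.7% (19.7 to 34.7), against 19.3% of nuclei without one. The same shares were 15.6% (11.8 to 20.0) and 14.4% in the null library. For Dusp1 they were 9.93% and 8.89% (control) and 10.1% and 9.74% (null). For Fos, Atf3, Egr1, Ier2 and Zfp36 the control shares were 23.5% to 36.8% with the gene and 19.4% to 20.5% without it, each interval including the share without. For Jun they were 17.5% and 17.9%, and for Fosb 0 of 8 nuclei. At 1000 UMIs, Junb alone of the 9 genes had a control interval above the share without the gene. In the null library every interval included that share at this depth. Neither result held at 2000 UMIs. There the control Junb interval (30.57% to 43.37%) included the share without (32.57%). The control intervals of Jun (30.91% to 40.07% against 30.41%) and Dusp1 (16.97% to 20.97% against 16.42%) lay above it. In the null library Dusp1 lay above (17.07% to 22.53% against 16.07%) and Zfp36 below (11.88% to 23.56% against 24.66%). These shares pool all classes. Within seromucous acinar-like nuclei the control intervals included the share without. Junb had 18.69% to 41.16% against 23.90% at 1000 UMIs. At 2000 UMIs Jun had 36.90% to 50.78% against 37.36% and Dusp1 17.64% to 23.01% against 17.81%. In null acinar nuclei at 2000 UMIs, Dusp1 again lay above (16.78% to 24.28% against 16.77%) and Zfp36 below (10.76% to 27.84% against 27.99%).

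Most of the 9 genes are short. Of the 9 genes, 7 span under 10000 bases, against a median span of 27172.5 bases over 11870 genes with at least 200 nuclear UMIs. The log2 ratio of nuclei over free RNA was -0.52 (control) and -0.31 (null) for Dusp1, -0.43 in both for Ier2 and -0.42 and -0.28 for Zfp36. Jun was at 0.42 and -0.03, and Egr1 at -0.66 and 0.12. The median over 2692 genes under 10000 bases was 0.09 and 0.12, and over the 11870 genes of any span it was 0.48 and 0.73. Dusp1, with a model of 56539 bases, is not among the short genes. Ier2, Zfp36 and Dusp1 were thus more abundant in free RNA than in nuclei in both libraries, while Junb (0.01 and -0.05) was level.

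The genes whose level across 11 named classes and 2 libraries (22 points) was most like the summed level of the 9 were, by Pearson correlation of log2(CPM + 10), Dusp4 (0.68), Jund (0.66), Mob2, Hnrnpa0, Bmpr2, Pnrc2, Dgkz, Cyb5r1, Mrps30 and Myzap (0.63), of 11104 genes compared. The points share libraries and free RNA, and the sum follows Dusp1 (0.76), with Egr1 at -0.01. Among pairs of the 9, Fos and Fosb (0.74) and Junb and Ier2 (0.64) were most alike and Jun and Egr1 (-0.48) least.

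Related early genes lay mostly below 0 in all nuclei, and only the early effector genes split as the 9 did. The interval lay below 0 for 13 effector genes and above 0 for 4. It lay below 0 for 10 other AP-1 family, 9 early transcription factor and 4 MAP kinase phosphatase genes, and above 0 for 0 of each. How many of all genes did so was not counted. The share of all genes in nuclei was 2.06% at least 2-fold lower and 1.68% higher. Of 17 other AP-1 family genes measured, 2 were at least 2-fold lower, Jdp2 (32.3 and 15.9 CPM, -1.02) and Fosl2 (26.5 and 13.2 CPM, -1.004), and 0 higher, with a median of -0.28. Of 14 other early transcription factor genes, 1 was lower, the nuclear receptor gene Nr4a3 (140 and 49.4 CPM, -1.50, -1.59 to -1.42), with a median of -0.46 and 13 of 14 below 0. Of 23 early effector genes, 3 were lower. These were Plk3 (77 and 44 UMIs), Rgs1 (20 and 5 UMIs) and Ptgs2 (21 and 1 UMIs), the last 2 named after their values were seen. Btg1, an antiproliferative gene, was at 0.56 (0.44 to 0.68). Of 9 other MAP kinase phosphatase genes, Dusp4 was lower (14.4 and 6.94 CPM, -1.05) and Dusp5 nearly so (105 and 56.5 CPM, -0.90). The 26 genes that act upstream of the early genes, kinases and factors such as Rps6ka5 (-0.54) and Map2k2 (0.25), had 0 past 2-fold and a median of -0.08, beside -0.09 for all genes.

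Heat shock genes lay on the other side. Of 12 measured, 11 were above 0 and 2 at least 2-fold higher, Hspa1b (208 and 521 UMIs, 1.12, 0.88 to 1.36) and Hspa1a (74 and 174 UMIs, 1.03, 0.63 to 1.44), with a median of 0.55, beside 1.68% of all genes at least 2-fold higher and 2.06% lower. The exception was Hsph1 (-0.01, -0.13 to 0.12). The median of all genes was -0.09, and how many of them lay above 0 was not counted. In free RNA the median was 0.36, with 10 of 12 above 0. Ier2 and Junb had ratios on the same side as these genes, and Dusp1, Egr1, Fos and Atf3 on the side of Nr4a3, Fosl2 and Dusp4. With 1 library each, genotype and anything else that differed between the 2 libraries cannot be told apart.

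**Figure D5:**
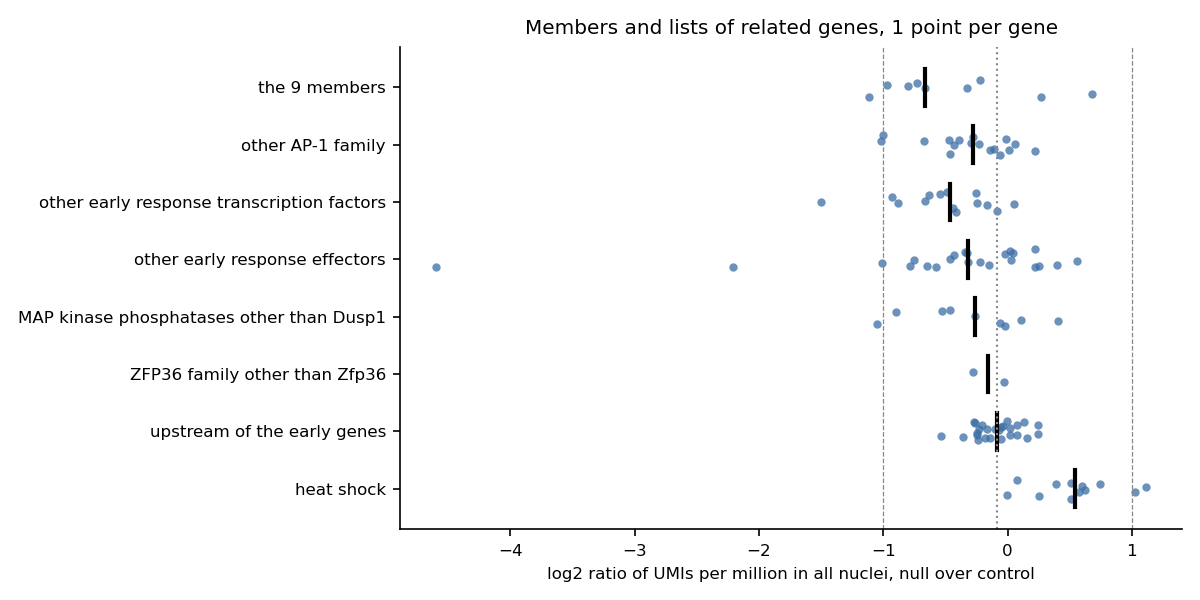
Log2 ratio null over control in all nuclei (x axis), 1 point per gene, for the 9 genes and 7 lists of related genes (y axis); black bars are list medians, the dotted line the median of all genes and dashed lines 2-fold. The early gene lists have medians between -0.67 and -0.15, the upstream genes -0.08 and the heat shock genes 0.55.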

How the data were processed

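The 2 deposited matrices hold unnormalized UMI counts (genes by barcodes). The submitters' processing notes name Cell Ranger 7.0.0 and build GRCm39. Aligner settings, the annotation and the counting of introns are not given in the sources used here. Barcodes were kept from 500 UMIs and 300 genes upward where mitochondrial UMIs were below 5% (67940 control, 55517 null) and clustered together with Scanpy 1.11.5 on 2000 variable genes per library, 30 principal components, 20 neighbours and Leiden resolution 1.0, with the early genes left out of the variable genes. Clusters were taken as free RNA where the 8 secretory genes with most UMIs took a share at least 0.75 times that seen in barcodes under 1000 UMIs. A class name needed at least 3 markers at least 2-fold above the other nuclei. No doublets were removed in the main values.

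UMIs were summed per class and library and scaled to CPM. Log2 ratios carry exact conditional binomial, sums exact Poisson and shares exact binomial 95% intervals. A ratio needed 20 UMIs over both libraries, and called means at least 2-fold. The interval was tried on simulated Poisson counts with known fold changes. These counts hold counting error only, so that trial cannot speak to variation between libraries. Beside the 9 genes, the text names the 10 genes most like their sum and up to 2 genes per list and direction with at least 50 UMIs. The genes and lists were chosen with earlier results of these data known. Alternatives covered the clustering, depth, mitochondrial share, doublets, scaling, free RNA and thresholds.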

Additional observations from a re-analysis of the deposited data

Results flagged for a closer look

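In 2 cases the counting interval of a class lay wholly on the other side of 0 from that of all nuclei. The differences between classes were not tested, since each genotype had 1 library. Jun had a log2 ratio null over control of 1.10 in mucous acinar-like nuclei, against -0.22 in all nuclei. Egr1 had 0.75 in myoepithelial and basal-like nuclei, against -0.80 in all nuclei. Over the alternatives run, the first stayed between 0.98 and 1.18 and the second between 0.68 and 1.05.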

How the results depend on the processing

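Every ratio of the 9 genes in all nuclei kept its sign under the 10 alternatives run for it, which were resolutions 0.5 and 2.0, early genes kept among the variable genes, at least 1000 UMIs with new or the same clusters, under 1% mitochondrial UMIs, doublets removed, shared barcodes left out, another total, and centring on the median gene. The same clusters at 1000 UMIs and the shared barcodes were alternatives chosen after seeing the data. The Fos interval included 0 under 4 of them, with upper bounds of 0.08 (1000 UMIs clustered again), 0.06 (doublets removed), 0.03 (another total) and 0.03 (centring). The Fosb interval included 0 under all 10, and no other gene's did. Without mitochondrial, ribosomal and secretory genes in the total, Dusp1 moved to -0.89 and the summed genes to -0.42; centring gave -0.89 and -0.42. The median of the 9 moved to -0.55 with at least 1000 UMIs clustered again and -0.50 with a minimum of 50 UMIs. At that minimum 0 genes were at least 2-fold lower, and at 1.5-fold 5 were lower and 1 higher. With 1000 UMIs per nucleus the share with a Dusp1 UMI was 12.96% and 7.35%, and unthinned 29.6% and 13.7%. The share with at least 2 of the 9 was 5.17% and 3.39% at 2000 UMIs and 9.62% and 4.399% unthinned. With free RNA subtracted, Dusp1 changed sign in luminal duct-like (0.09) and ionocyte-like nuclei (0.82), and the null level was also the higher in the Unc5c cluster and in the mucous acinar-like and both intercalated duct-like classes, whose own secretory transcripts make the subtraction uncertain. Of the ratios and levels followed by class with that subtraction, 19 moved outside their counting interval and 31 stayed within it. Re-clustering at 1000 UMIs split acinar nuclei by library, so the acinar and intercalated duct classes were not followed there. Scrublet marked 298 of 8641 control but 4 of 14229 null nuclei and is taken as not having worked in the null library. Depth limits Fos, Fosb and Atf3 to 1 class or none. No paired analysis was possible because each genotype had 1 library.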
